A study of Mus musculus with 6 samples.

Results

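SR proteins and hnRNPs are the RNA-binding proteins that help the spliceosome choose which exons to join, and their own genes make several kinds of transcript. The genes described here are those of mouse whose symbol begins with Srsf or Hnrnp and that have at least 1 protein-coding transcript in the deposited table. The rule found 31 genes, 11 Srsf and 20 Hnrnp, among 29510 gene symbols, with 261 of the table's 85882 transcripts. Another 3 symbols with these beginnings had no protein-coding transcript, as their symbols name them pseudogenes, and were left out. RNA came from mouse primary chondrocytes, the cells that build cartilage. The control libraries were Nf2f/f, with both Nf2 alleles floxed and no Cre (control 1 to 3, n = 3). The conditional knockout libraries were labelled Nf2f/f;Prx1-CRE, with the same floxed alleles and a Cre whose Prx1 promoter is active in limb bud mesenchyme (cKO 1 to 3, n = 3). Both groups therefore carry the floxed alleles, and none without them was used here. Nf2 encodes merlin, and the series title is about its part in limb and thumb formation through cilia and Hedgehog signals. The labels do not tell whether the replicates are different animals or different cultures. The p-values therefore reflect the spread among these libraries, which may be technical.

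SR proteins carry RNA-recognition motifs and a domain rich in arginine and serine, and mostly favour the use of the exons they bind. The hnRNPs bind nascent transcripts and often favour exon skipping, and several shuttle to the cytoplasm and act on mRNA stability or translation. Many genes of both families limit their own protein through splicing: a transcript that takes in an exon with an early stop codon is destroyed by nonsense-mediated decay (NMD), and a transcript that keeps an intron is usually held in the nucleus or degraded. The share of protein-coding, intron-retaining and NMD transcripts is therefore a known point of control for these genes.

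Between 12441 and 12697 genes reached 1 FPKM (fragments per kilobase of transcript, scaled to the fragments of the library, the authors' unit) in each library. FPKM hold no fragment counts, so no counting interval is given. Libraries of 1 group correlated at 0.987 to 0.989 and libraries of different groups at 0.972 to 0.981, over genes, which are not independent replicates. The summed level of 8 chondrocyte markers, all at 1 FPKM or more, was 4347 to 5393 FPKM in control and 2001 to 2466 FPKM in cKO, led by Col2a1, the main cartilage collagen. The cells of both groups thus carried the markers of their label, and cKO at lower levels. Macrophage markers summed to 4.91 to 14.9 FPKM in control and 6.08 to 9.56 FPKM in cKO, and adipocyte markers to 29.5 to 32.9 and 17.2 to 38.2 FPKM. Nearly all of the adipocyte sum was Fabp4, while Adipoq and Plin1 reached at most 0.108 FPKM in any library. Osteoblast markers summed to 1.87 to 3.38 FPKM in control and 1.84 to 5.37 FPKM in cKO, and of these 3 only Sp7 averaged 1 FPKM or more. Markers of endothelium, epidermis, muscle, erythroid cells and neural cells each averaged under 1 FPKM. The erythroid markers still separated the groups, with sums of 0.333 to 2.03 FPKM in control and 0.0192 to 0.0566 FPKM in cKO. The part of these markers in the results below was not tested. Nf2 itself ranged from 14.1 to 16.7 FPKM over the control libraries and from 15.6 to 18.1 FPKM over the cKO libraries. The sums cover the whole transcript, floxed and unfloxed parts alike, so they do not check the deletion, and the cKO libraries are called so by their labels.

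The 261 transcripts comprised 124 protein-coding, 74 retained-intron and 33 NMD transcripts and 30 of other classes, by the classes in the deposited table. All 261 had the same chromosome, start, end and class in the GENCODE M21 annotation of the mm10 build. Retained-intron transcripts were listed for 22 of the 31 genes and NMD transcripts for 19, and 5 genes (Hnrnpa0, Hnrnpab, Hnrnpf, Hnrnph2 and Srsf12) had protein-coding transcripts only. Of 48 retained-intron transcripts with a mean of at least 0.5 FPKM, 19 held a whole intron of the gene's highest coding transcript, 28 held part of one and 1 held none. In 7 genes (Srsf3, Srsf4, Srsf6, Srsf7, Srsf11, Hnrnpl and Hnrnpll) such a transcript read into the same intron that holds an NMD-only exon with a stop codon. In Srsf3, Srsf6, Srsf7 and Srsf11 a retained-intron transcript contained that whole exon.

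The coding part of these exons is shown for 6 of the 7 genes, since it is the stretch by which a spliced transcript of the gene becomes a target of NMD. Each sequence runs from the first base of the exon to its stop codon, in the coding direction, and the capitals mark the stop codon. Coordinates are on mm10, from GENCODE M21. The Srsf3 stretch lies at chr17:29039454-29039487 on the plus strand, that of Srsf6 at chr2:162932815-162932966 on the plus strand, and that of Srsf7 at chr17:80205054-80205081 on the minus strand. The Srsf11 stretch lies at chr3:158024209-158024231 on the minus strand, that of Hnrnpl at chr7:28817335-28817393 on the plus strand, and that of Hnrnpll at chr17:80044976-80045022 on the minus strand.
Srsf3: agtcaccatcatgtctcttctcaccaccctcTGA
Srsf6: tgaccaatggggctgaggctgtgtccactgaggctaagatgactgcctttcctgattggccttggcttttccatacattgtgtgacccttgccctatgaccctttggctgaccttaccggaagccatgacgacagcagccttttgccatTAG
Srsf7: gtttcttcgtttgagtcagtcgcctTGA
Srsf11: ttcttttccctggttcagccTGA
Hnrnpl: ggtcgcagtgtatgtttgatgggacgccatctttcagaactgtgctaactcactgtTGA
Hnrnpll: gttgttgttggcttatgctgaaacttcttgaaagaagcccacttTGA
The stop codon ended 23 to 152 bases into these exons, soonest in Srsf11 and latest in Srsf6. The whole exons were 456 bases in Srsf3, 268 in Srsf6, 460 in Srsf7, 109 in Srsf11, 70 in Hnrnpl and 83 in Hnrnpll.

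**Figure D1:**
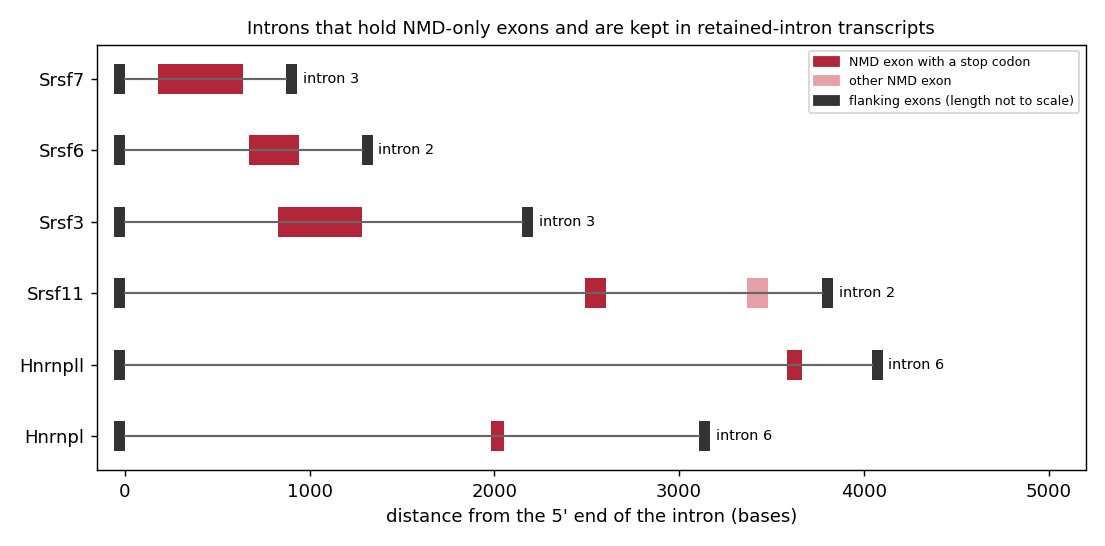
Introns that hold an NMD-only exon and are wholly or partly kept in a retained-intron transcript, drawn from the 5′ end of the intron in bases; dark boxes stand for the flanking exons, red boxes for NMD exons with a stop codon and the pink box for a second Srsf11 exon, which holds the stop only in an NMD transcript with a mean of 0.009 FPKM. The introns of Srsf7, Srsf6 and Srsf3 are 874, 1283 and 2150 bases long and those of Hnrnpl, Srsf11 and Hnrnpll 3108 to 4042, and Srsf4, whose intron has 17336 bases, is not drawn.

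The first question was whether the summed level of each gene differed between cKO and control. Srsf11 was lower in cKO, and it was the 1 gene of the 31 that passed the test. Among all 14080 genes tested, 12.2% passed, 7.6% higher and 4.57% lower in cKO. The median log2 change was 0.023 for the 31 genes and 0.051 for all genes tested. These medians depended on the scaling: that of the 31 genes was -0.027 with median-of-ratios scaling, -0.061 with quantile normalization and -0.012 after rescaling to a fixed total, against 0.0055, 0.021 and 0.013 for all genes. All 31 genes passed the filter of a mean of 0.5 FPKM, with means from 0.764 FPKM for Srsf12 to 558.9 FPKM for Hnrnpa2b1. In bulk samples, fewer cells of a type and less RNA per cell cannot be told apart.

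The groups did not overlap for 10 genes. In 7 of them every cKO library lay above every control library (Hnrnpa1, Hnrnpab, Hnrnpf, Hnrnpk, Hnrnpl, Hnrnpr and Srsf12), and in 3 every cKO library lay below (Hnrnpu, Srsf10 and Srsf11). Over all genes tested, 22.8% were separated in the first way and 12.3% in the second. At an unadjusted p under 0.05, 8 of the 31 genes were higher and 2 lower, against 19.5% and 10.1% of all genes tested.

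**Figure D2:**
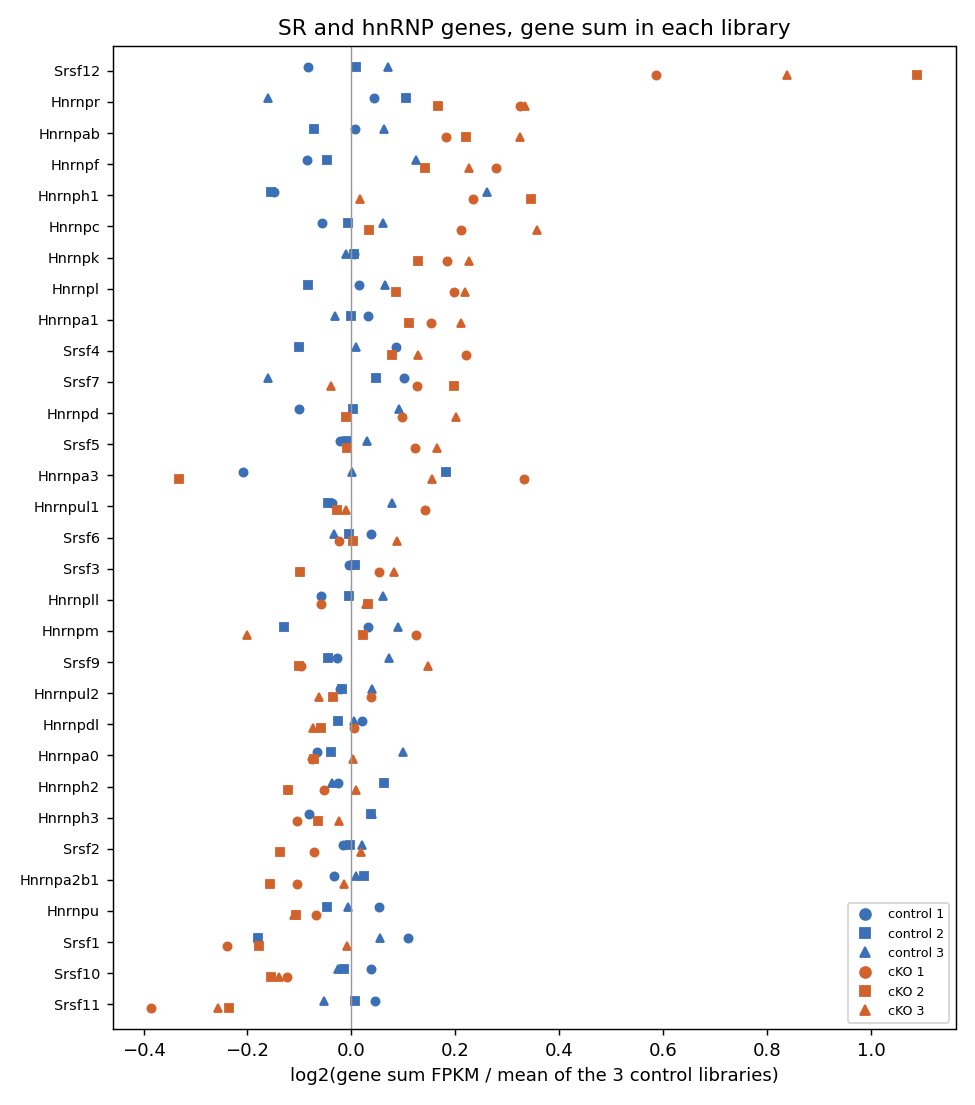
Gene sum of each SR and hnRNP gene in each library, as log2 of its FPKM over the mean of the 3 control libraries; blue symbols are control, orange symbols cKO, and genes are ordered by their mean in cKO. Most genes stay close to the vertical line in every library, and in cKO Srsf12 stands highest and Srsf11 lowest.

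Srsf11, an SR-family protein outside the classical set, was at 95.9, 93.4 and 89.6 FPKM in controls 1 to 3 and 71.2, 78.99 and 77.8 FPKM in cKO 1 to 3. Every cKO library lay below every control library, with a log2 change of -0.29 (SE 0.064, adjusted p = 0.0252) by limma. The call was lost when control 1 (adjusted p = 0.1), control 2 (0.0979) or cKO 1 (0.0716) was left out, when low values were not filtered (0.0619), when the mean-variance trend was dropped (0.0649) and with the replicate block (0.0585). It passed in 9 of 15 alternatives, with adjusted p from 0.0121 to 0.1. Srsf10, an SR protein that turns into a splicing repressor when it loses its phosphates, was at 69.6, 67.2 and 66.7 FPKM in controls 1 to 3 and 62.3, 60.9 and 61.6 FPKM in cKO 1 to 3. Its groups were also separate and lower in cKO, with a log2 change of -0.14 (SE 0.053, adjusted p = 0.131), which did not pass. The coding transcripts of Srsf10 alone were at 54.0, 51.5 and 51.1 FPKM in controls 1 to 3 and 49.3, 49.9 and 51.3 FPKM in cKO 1 to 3. Those groups overlapped, with a log2 change of -0.057 (SE 0.054, adjusted p = 0.524). Srsf12, a relative of Srsf10, had the lowest gene sum of all 31 genes, 0.514, 0.548 and 0.572 FPKM in controls 1 to 3 and 0.817, 1.16 and 0.974 FPKM in cKO 1 to 3. Its cKO libraries were all higher, with a log2 change of 0.50 (SE 0.159, adjusted p = 0.0779). It passed in 1 alternative, without the mean-variance trend (adjusted p = 0.0320).

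The 8 other Srsf genes overlapped between groups. Srsf2, also known as SC35 and a marker of nuclear speckles, was the highest, at 148, 149 and 152 FPKM in controls 1 to 3 and 142, 136 and 151 FPKM in cKO 1 to 3. Srsf5 was at 131, 132 and 135 FPKM in controls 1 to 3 and 144, 132 and 148 FPKM in cKO 1 to 3. Srsf3, the smallest SR protein, was at 117, 118 and 117 FPKM in controls 1 to 3 and 122, 109.7 and 124 FPKM in cKO 1 to 3. In all of these the spread of the cKO libraries covered the control values, or nearly so, and the log2 changes were -0.064, 0.093 and 0.012. Srsf1, the founding member of the family, was at 71.99 ± 7.46 FPKM over control and 65.4 ± 5.49 FPKM over cKO libraries (SD, n = 3), Srsf7, which has a zinc knuckle, at 83.6 ± 7.83 FPKM over control and 89.4 ± 7.39 FPKM over cKO libraries, and Srsf6 at 72.6 ± 1.84 FPKM over control and 73.8 ± 3.02 FPKM over cKO libraries. Srsf4 was at 20.3 ± 1.32 FPKM over control and 22.5 ± 1.14 FPKM over cKO libraries, and Srsf9 at 31.8 ± 1.41 FPKM over control and 31.5 ± 3.19 FPKM over cKO libraries. None of these differences passed, with adjusted p from 0.245 to 0.923. Summed over the 11 genes, the level was 856, 832 and 835 FPKM in controls 1 to 3 and 819.8, 802 and 852 FPKM in cKO 1 to 3, and these groups overlap.

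Among the hnRNPs, the A/B group holds the most abundant members. Hnrnpa2b1, a reader of RNA sorting signals that also acts in splicing, had the highest level, 563, 586 and 580.0 FPKM in controls 1 to 3 and 536, 517 and 571 FPKM in cKO 1 to 3. Its cKO libraries were on the low side but overlapped control, with a log2 change of -0.091 (SE 0.066, adjusted p = 0.406). Hnrnpa1, a splicing repressor that competes with SR proteins, was at 300.2, 294 and 287 FPKM in controls 1 to 3 and 326, 317 and 339.9 FPKM in cKO 1 to 3. All 3 cKO libraries were higher, with a log2 change of 0.16 (SE 0.060, adjusted p = 0.122), which did not pass. Hnrnpab, which binds both RNA and DNA, was at 266, 251 and 276 FPKM in controls 1 to 3 and 300.0, 308 and 331 FPKM in cKO 1 to 3. Its groups were separate and higher in cKO, with a log2 change of 0.24 (SE 0.067, adjusted p = 0.0522). It passed only where genes needed a mean of 2 FPKM (adjusted p = 0.0468). Hnrnpa3 and Hnrnpa0 were at 29.5 ± 3.95 FPKM over control and 31.2 ± 7.01 FPKM over cKO libraries, and at 71.1 ± 4.46 FPKM over control and 68.8 ± 2.14 FPKM over cKO libraries.

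Hnrnpk, which binds runs of C and acts on transcription, splicing and translation, was at 201, 201 and 199 FPKM in controls 1 to 3 and 228, 219 and 235 FPKM in cKO 1 to 3. The control libraries were tight and every cKO library was higher, with a log2 change of 0.18 (SE 0.057, adjusted p = 0.0769). Hnrnpf, which binds runs of G, was at 171, 176 and 198 FPKM in controls 1 to 3 and 220.4, 200.5 and 212 FPKM in cKO 1 to 3. Its cKO libraries were all higher than control, with control 3 close to cKO 2, and the fit gave a log2 change of 0.22 (SE 0.075, adjusted p = 0.096). Hnrnpr, a relative of the mRNA-binding Syncrip, was at 35.1, 36.7 and 30.5 FPKM in controls 1 to 3 and 42.7, 38.3 and 42.97 FPKM in cKO 1 to 3. Those groups were separate too, with a log2 change of 0.28 (SE 0.085, adjusted p = 0.0725). Hnrnpl, which binds CA repeats, was at 102, 95.5 and 106 FPKM in controls 1 to 3 and 116, 108 and 118 FPKM in cKO 1 to 3, and Hnrnpc, which binds runs of U in nascent transcripts, at 132, 137 and 143 FPKM in controls 1 to 3 and 159, 141 and 176 FPKM in cKO 1 to 3. Hnrnpl was separate and Hnrnpc not, with log2 changes of 0.17 and 0.20 and adjusted p of 0.135 and 0.167. None of these genes passed the test at the level of the gene sum.

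Hnrnph1, a close relative of Hnrnpf, was at 158, 157 and 210.0 FPKM in controls 1 to 3 and 206, 223 and 177 FPKM in cKO 1 to 3. Its libraries spread widely within both groups, and control 3 lay above cKO 3. Its sum is split between 2 coding transcripts and 14 of other classes, and the estimates moved between them from library to library. The highest coding transcript (ENSMUST00000069304) was at 33.8, 23.96 and 81.6 FPKM in controls 1 to 3 and 148, 141 and 40.4 FPKM in cKO 1 to 3, and the transcript without a reading frame ENSMUST00000126737 at 60.4, 64.96 and 35.8 FPKM in controls 1 to 3 and 15.7, 7.48 and 58.9 FPKM in cKO 1 to 3. Where the former ran high the latter ran low, within both groups. ENSMUST00000126737 keeps 2 whole introns of that coding transcript (1494 and 939 bases). Its class in the deposited table is processed transcript, so it and other intron-holding transcripts of that class, in Hnrnph1 and Srsf10 among others, are not in the retained-intron sums below. Hnrnpu, a nuclear scaffold protein that binds chromatin, was at 116, 108 and 111 FPKM in controls 1 to 3 and 107, 104 and 104 FPKM in cKO 1 to 3. Its cKO libraries were all lower, with a log2 change of -0.095 (SE 0.056, adjusted p = 0.307). The 8 remaining hnRNP genes (Hnrnpd, Hnrnpdl, Hnrnph2, Hnrnph3, Hnrnpll, Hnrnpm, Hnrnpul1 and Hnrnpul2) overlapped between groups, with log2 changes from -0.062 to 0.097. The 20 hnRNP genes summed to 2592, 2594 and 2721 FPKM in controls 1 to 3 and 2819.8, 2716 and 2859 FPKM in cKO 1 to 3. The lowest cKO sum lay below the highest control sum.

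Protein-coding transcripts were then summed alone. Hnrnpl was higher in cKO and was the 1 of 31 genes that passed. Of 11676 genes tested for this sum, 11.5% passed, 7.16% higher and 4.36% lower. The 31 genes had a median log2 change of 0.041 and all genes 0.068, and the median of the 31 was -0.0094 with median-of-ratios scaling, -0.038 with quantile normalization and 0.0057 after rescaling to a fixed total, against 0.022, 0.022 and 0.034 for all genes. The groups were separate and higher in cKO for 7 genes (Hnrnpab, Hnrnpf, Hnrnpk, Hnrnpl, Hnrnpr, Srsf4 and Srsf12) and lower for 0 of them, against 24.9% and 11.4% of all genes tested. At an unadjusted p under 0.05, 10 genes were higher and 0 lower, against 20.7% and 9.18% of all genes tested. Over the 31 genes, coding transcripts summed to 2715, 2660 and 2729 FPKM in controls 1 to 3 and 2987, 2864 and 2999.9 FPKM in cKO 1 to 3. Every cKO library was higher, as it was for the coding sum of all other genes. That sum was 320143, 321276 and 328432 FPKM in controls 1 to 3 and 330207, 329853 and 347673 FPKM in cKO 1 to 3.

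The protein-coding transcripts of Hnrnpl were at 71.3, 70.9 and 75.00 FPKM in controls 1 to 3 and 84.2, 84.5 and 85.9 FPKM in cKO 1 to 3. The cKO libraries lay within 2 FPKM of each other and above all controls, with a log2 change of 0.23 (SE 0.053, adjusted p = 0.0364). The call passed in 4 of 15 alternatives, and was lost when any single library was left out (adjusted p from 0.0546 without control 3 to 0.143 without control 2), under each of the 3 scalings (0.0526 to 0.0937), without the trend (0.0765) and with the replicate block (0.0808). Those of Hnrnpk were at 189, 189.9 and 187 FPKM in controls 1 to 3 and 219.6, 209.7 and 228 FPKM in cKO 1 to 3, with a log2 change of 0.21 (SE 0.056, adjusted p = 0.051). Coding transcripts of Srsf4, whose protein is a long SR protein, were at 15.4, 11.97 and 11.1 FPKM in controls 1 to 3 and 16.2, 15.5 and 16.96 FPKM in cKO 1 to 3. They were higher in every cKO library, with a log2 change of 0.34 (SE 0.119, adjusted p = 0.108). The coding sum of Hnrnph1 had the largest log2 change, 0.81, with an SE of 0.300 and an adjusted p of 0.123, and cKO 3 overlapped control. Coding transcripts of Srsf11 were at 45.7, 41.6 and 37.3 FPKM in controls 1 to 3 and 37.1, 34.1 and 40.1 FPKM in cKO 1 to 3. They overlapped between groups, with a log2 change of -0.16 (SE 0.094, adjusted p = 0.301).

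The retained-intron transcripts of these genes were lower in cKO when summed, and 17 of the 18 genes tested had a log2 change below 0, as had 62.4% of all genes tested for this sum, but no gene passed the test by itself. Over the 22 genes with such transcripts, their FPKM summed to 398, 424 and 420.2 FPKM in controls 1 to 3 and 329, 356 and 337 FPKM in cKO 1 to 3. The groups did not overlap, and the mean went from 413.9 ± 14.0 FPKM in control to 340.7 ± 13.6 FPKM in cKO (SD, n = 3), a ratio of 0.823. Hnrnpa2b1 alone made up 159 FPKM of the control mean and 118 FPKM of the cKO mean. Without it the ratio was 0.874, and without Hnrnpa2b1 and Srsf11 it was 0.903, with 191 to 212 FPKM in control and 176 to 192 FPKM in cKO, so that the groups then overlapped. These exclusions were chosen after the data were seen. Leaving out 1 library at a time gave ratios of 0.805 to 0.837.

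As a share of the summed level of the 31 genes, retained-intron transcripts made up 11.5, 12.4 and 11.8% for controls 1 to 3 and 9.05, 10.1 and 9.08% for cKO 1 to 3. Every cKO library was lower. The same share over all other genes was 3.43, 3.52 and 3.45% for controls 1 to 3 and 3.39, 3.34 and 3.12% for cKO 1 to 3, so retained-intron transcripts took up a larger share of these splicing factor genes than of other genes in each library. Such transcripts were listed for 22 of the 31 genes and for 8263 of the 29479 others, so the sets also differ in annotation. The share was also lower in every cKO library than in every control library over those other genes. Within the Srsf genes the share was 21.6, 24.3 and 23.99% for controls 1 to 3 and 20.6, 23.01 and 19.9% for cKO 1 to 3, and within the Hnrnp genes 8.23, 8.55 and 8.08% for controls 1 to 3 and 5.69, 6.302 and 5.87% for cKO 1 to 3. The Srsf genes carried the higher share, and their groups overlapped, while those of the Hnrnp genes did not.

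By limma on retained-intron sums, 0 of 18 genes passed, against 0.444% of 3378 genes (0.0888% higher and 0.355% lower), and 4 were lower and 0 higher at an unadjusted p under 0.05, against 7.02% and 2.81% of all genes tested. The other 4 of the 22 genes lay below the filter, with a highest mean of 0.229 FPKM. The median log2 change was -0.27 over the 18 genes and -0.10 over the 3378. Under the 3 scalings the median of these genes was -0.31, -0.23 and -0.30, and that of all genes -0.13, -0.0096 and -0.13, in the order median-of-ratios, quantile and rescaling to a fixed total, the last over 19 genes that then passed the filter. Quantile normalization was done within this class, which by design brings the median of all genes near 0. Of the 18 genes, 16 were below 0 with quantile normalization and 15 without cKO 3. The groups were separate and lower in cKO for 8 genes (Hnrnpa2b1, Hnrnpk, Hnrnpll, Hnrnpm, Hnrnpul2, Srsf2, Srsf3 and Srsf11) and higher for 0, where 13.1% and 4.26% of all genes were so. The 18 genes had means of 0.805 to 138.5 FPKM in this class, and all genes tested were not matched to them in level. How far these medians and shares depend on level was not tested, here or for the class ratio and single transcripts below.

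The retained-intron sum of Hnrnpa2b1 was 157, 163 and 157 FPKM in controls 1 to 3 and 111, 119 and 124 FPKM in cKO 1 to 3. It was lower in all cKO libraries, while the sum of its coding transcripts, at 356, 366 and 362 FPKM in controls 1 to 3 and 357, 342 and 375 FPKM in cKO 1 to 3, overlapped between groups. The log2 changes were -0.43 (SE 0.132, adjusted p = 0.376) and -0.014 (SE 0.060, adjusted p = 0.9). The 5 coding transcripts behind that sum did not move together, and none passed by limma. Log2 changes were 0.35 for ENSMUST00000204188 (SE 0.094, adjusted p = 0.186) and 0.56 for ENSMUST00000090002 (SE 0.535, adjusted p = 0.675). For ENSMUST00000114459, ENSMUST00000203220 and ENSMUST00000069949 they were -0.22, -0.18 and -0.090. The share of the gene in retained-intron transcripts was 27.9, 27.9 and 27.01% for controls 1 to 3 and 20.6, 23.04 and 21.7% for cKO 1 to 3, separate between groups. Its coding share was 63.2, 62.4 and 62.4% for controls 1 to 3 and 66.5, 66.1 and 65.7% for cKO 1 to 3, and its NMD share 8.93, 9.69 and 10.6% for controls 1 to 3 and 12.8, 10.9 and 12.5% for cKO 1 to 3. Both of these shares were separate and higher in cKO, while its NMD sum in FPKM overlapped. Hnrnpk was at 11.1, 10.6 and 11.01 FPKM in controls 1 to 3 and 7.24, 8.22 and 6.17 FPKM in cKO 1 to 3. Here the coding sum was higher and the retained-intron sum lower in every cKO library, the latter with a log2 change of -0.57 (SE 0.165, adjusted p = 0.365). Hnrnpm, which acts on splicing at GU-rich sites, was at 3.12, 5.23 and 2.698 FPKM in controls 1 to 3 and 2.34, 2.34 and 1.81 FPKM in cKO 1 to 3. Its groups were separate, though control 2 stood above the other controls, with a log2 change of -0.61 (SE 0.248, adjusted p = 0.491).

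In Srsf11 retained-intron transcripts formed about as large a part of the gene as coding ones. Their sum was 49.7, 51.4 and 51.2 FPKM in controls 1 to 3 and 33.6, 44.4 and 37.2 FPKM in cKO 1 to 3. The controls agreed within 2 FPKM and every cKO library was lower, with a log2 change of -0.41 (SE 0.158, adjusted p = 0.491). As a share of the gene this was 51.8, 55.1 and 57.1% for controls 1 to 3 and 47.2, 56.3 and 47.8% for cKO 1 to 3, and the groups overlapped. Hnrnpll, a relative of Hnrnpl known for splicing of CD45 in T cells, was at 5.78, 4.86 and 4.78 FPKM in controls 1 to 3 and 4.33, 3.66 and 3.45 FPKM in cKO 1 to 3. Again every cKO library was lower, with a log2 change of -0.39 (SE 0.171, adjusted p = 0.506). Srsf2 was at 25.99, 26.8 and 25.9 FPKM in controls 1 to 3 and 21.8, 22.6 and 22.3 FPKM in cKO 1 to 3. Both groups were tight and separate, with a log2 change of -0.23 (SE 0.138, adjusted p = 0.562).

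Srsf6 was the 1 gene of the 18 with a log2 change above 0. Its retained-intron sum was 22.98, 22.1 and 18.5 FPKM in controls 1 to 3 and 20.6, 24.5 and 26.97 FPKM in cKO 1 to 3. The groups overlapped, with a log2 change of 0.17 (SE 0.173, adjusted p = 0.719). Srsf5 had a high share in this class, 37.9, 47.4 and 45.2% for controls 1 to 3 and 40.4, 43.1 and 33.5% for cKO 1 to 3, and Hnrnpl a lower one, 18.4, 19.6 and 21.6% for controls 1 to 3 and 17.5, 17.8 and 15.97% for cKO 1 to 3. The shares of Srsf5 overlapped, and those of Hnrnpl were lower in each cKO library, where its coding sum was higher. The remaining 9 genes (Hnrnpa3, Hnrnpdl, Hnrnph3, Hnrnpu, Hnrnpul2, Srsf1, Srsf3, Srsf4 and Srsf7) had retained-intron log2 changes from -0.53 to -0.084 with SEs of up to 0.467.

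**Figure D3:**
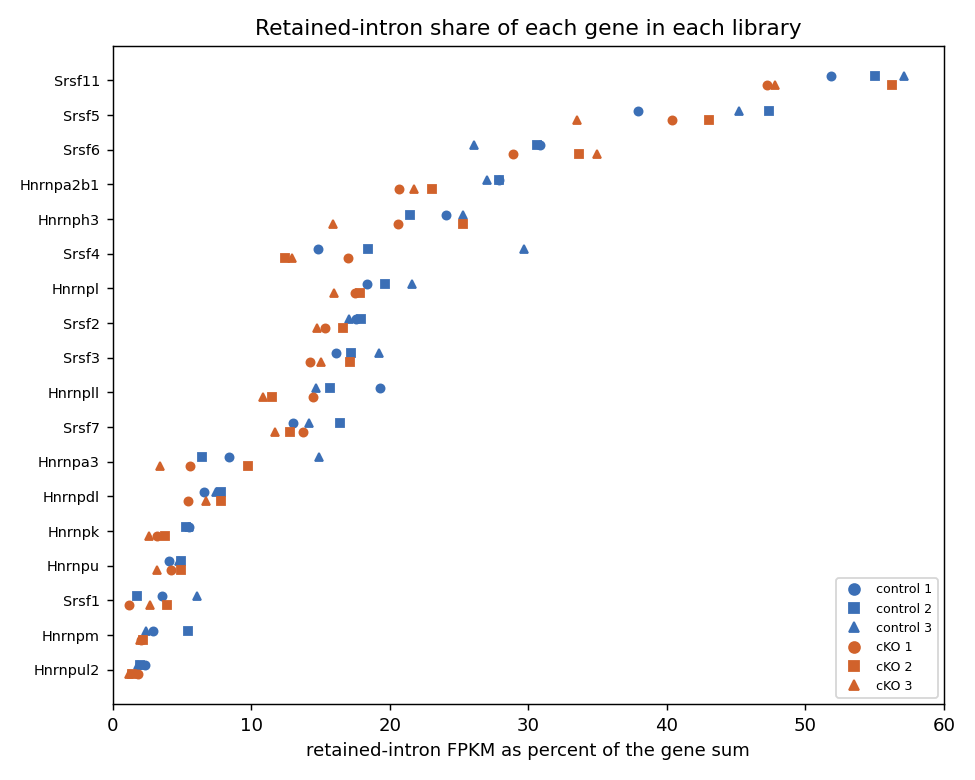
Retained-intron FPKM as a percent of the gene sum for the 18 genes tested, in each of the 6 libraries; blue symbols are control and orange symbols cKO. The share runs from 47.2 to 57.1% in Srsf11 down to 1.204 to 2.303% in Hnrnpul2. In Hnrnpa2b1, Hnrnpk, Hnrnpl, Hnrnpll, Hnrnpm, Hnrnpul2 and Srsf2 all cKO libraries lie to the left of control, and in the rest the groups overlap. The mean share was lower in cKO for 71.6% of all genes tested, and how many of those had separate groups was not counted.

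The ratio of retained-intron to protein-coding FPKM was tested on its own. Of 18 genes 0 passed by limma, against 0.121% of 3305 genes, and 2 were lower and 0 higher at an unadjusted p under 0.05, against 8.84% and 1.85%. The 2 were Hnrnpk, with a log2 change of -0.79 (SE 0.187, adjusted p = 0.425), and Hnrnpll, with a log2 change of -0.73 (SE 0.264, adjusted p = 0.45). The ratio was lower in cKO in 17 of 18 genes, with a median of -0.28, and in 71.9% of all genes, with a median of -0.19. Quantile normalization gave each class the same distribution in every library, which by design brings the median of all genes near 0. It moved that median to -0.012, a shift of over 0.1. The median of the 18 genes moved to -0.13, with 16 of them and 51.6% of all genes below 0. The median of the 18 genes lay below that of all genes in both settings.

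**Figure D4:**
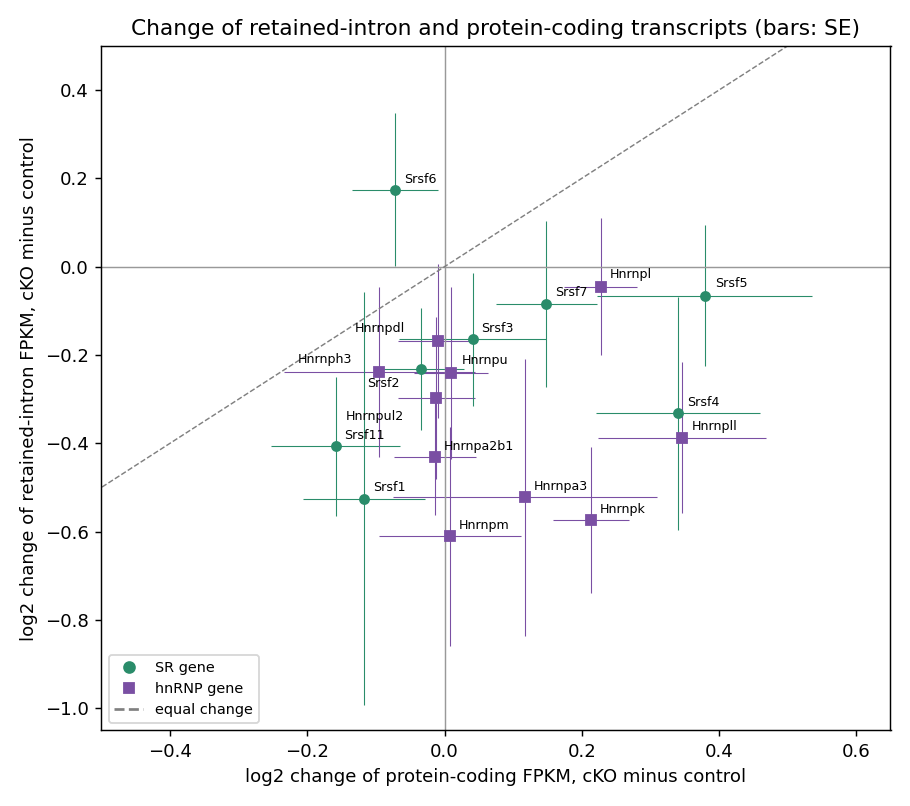
Log2 change of retained-intron FPKM against log2 change of protein-coding FPKM (cKO minus control) for the 18 genes tested, with bars of 1 SE; green circles are SR genes, purple squares hnRNP genes, and the dashed line marks equal change. All genes but Srsf6 lie below the horizontal axis and below the dashed line.

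Single transcripts were less steady than sums. The median coefficient of variation within groups (pooled SD over the mean of all 6 libraries) was 4.96% for the 31 gene sums and 25.9% for the 185 member transcripts of at least 0.5 FPKM. Of these 185 transcripts 0 passed by limma, against 0.609% of 27761 transcripts (0.187% higher and 0.421% lower), and 9 were higher and 12 lower at an unadjusted p under 0.05, against 8.99% and 5.56% of all transcripts tested. The groups did not overlap for 9 of them that were higher and 26 that were lower in cKO, where 13.3% and 9.36% of all transcripts tested were so. Of the 48 retained-intron transcripts among the 185, 12 were separate and lower and 0 higher, where 11.4% and 4.38% of all retained-intron transcripts were so. Of the 97 protein-coding ones 8 were separate in each direction, where 8.84% of all protein-coding transcripts were lower and 16.4% higher. The lowest adjusted p belonged to a pair of retained-intron transcripts of Hnrnpa2b1 in the last intron of the gene, beside untranslated exon parts. ENSMUST00000204885 (chr6:51461145-51463184, minus strand, mm10) was at 71.6, 72.5 and 68.3 FPKM in controls 1 to 3 and 47.9, 52.7 and 55.4 FPKM in cKO 1 to 3. ENSMUST00000204090 (chr6:51462800-51464160, minus strand) was at 68.4, 73.97 and 71.2 FPKM in controls 1 to 3 and 49.3, 51.8 and 56.7 FPKM in cKO 1 to 3. In both, all cKO libraries lay well below control, with a log2 change of -0.44 (SE 0.072, adjusted p = 0.0719) and a log2 change of -0.43 (SE 0.072, adjusted p = 0.0747). Their ends overlap, so their values are not independent. Both passed with quantile normalization, and ENSMUST00000204090 also after rescaling to a fixed total. ENSMUST00000204090 keeps a 156-base intron that is spliced out of the coding transcript ENSMUST00000204188, whose log2 change by limma was 0.35 (adjusted p = 0.186).

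Srsf11 has several transcripts that read into intron 2. ENSMUST00000089922, which holds the whole NMD exon shown above, was at 18.5, 16.01 and 15.6 FPKM in controls 1 to 3 and 11.4, 12.1 and 9.77 FPKM in cKO 1 to 3. It was lower in every cKO library, with a log2 change of -0.57 (SE 0.114, adjusted p = 0.109). ENSMUST00000133090, which holds 1988 bases of the same intron, was at 18.6, 18.7 and 16.7 FPKM in controls 1 to 3 and 13.1, 16.2 and 9.47 FPKM in cKO 1 to 3. These groups were also separate, with a log2 change of -0.49 (SE 0.194, adjusted p = 0.33). ENSMUST00000152274, which starts inside that intron and holds the other NMD exon of Srsf11 (the pink box in the map), was at 5.81, 8.66 and 10.3 FPKM in controls 1 to 3 and 4.63, 10.1 and 9.74 FPKM in cKO 1 to 3. Here the groups overlapped, so the transcripts of 1 intron did not all separate the groups. Srsf2 has 1 retained-intron transcript, ENSMUST00000138484, which keeps the whole of intron 2 (1059 bases) beside untranslated exon parts and equals the sum given above. In Hnrnpu a transcript without a reading frame (ENSMUST00000159117, chr1:178321108-178324171, minus strand) was at 14.9, 14.2 and 14.8 FPKM in controls 1 to 3 and 11.2, 10.8 and 11.6 FPKM in cKO 1 to 3. It lies outside the span of the highest coding transcript of the gene, and it was lower in all cKO libraries, with a log2 change of -0.38 (SE 0.073, adjusted p = 0.105), while the coding sum of Hnrnpu was 84.6, 82.02 and 87.1 FPKM in controls 1 to 3 and 87.3, 84.5 and 83.6 FPKM in cKO 1 to 3. The coding groups overlapped.

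**Figure D5:**
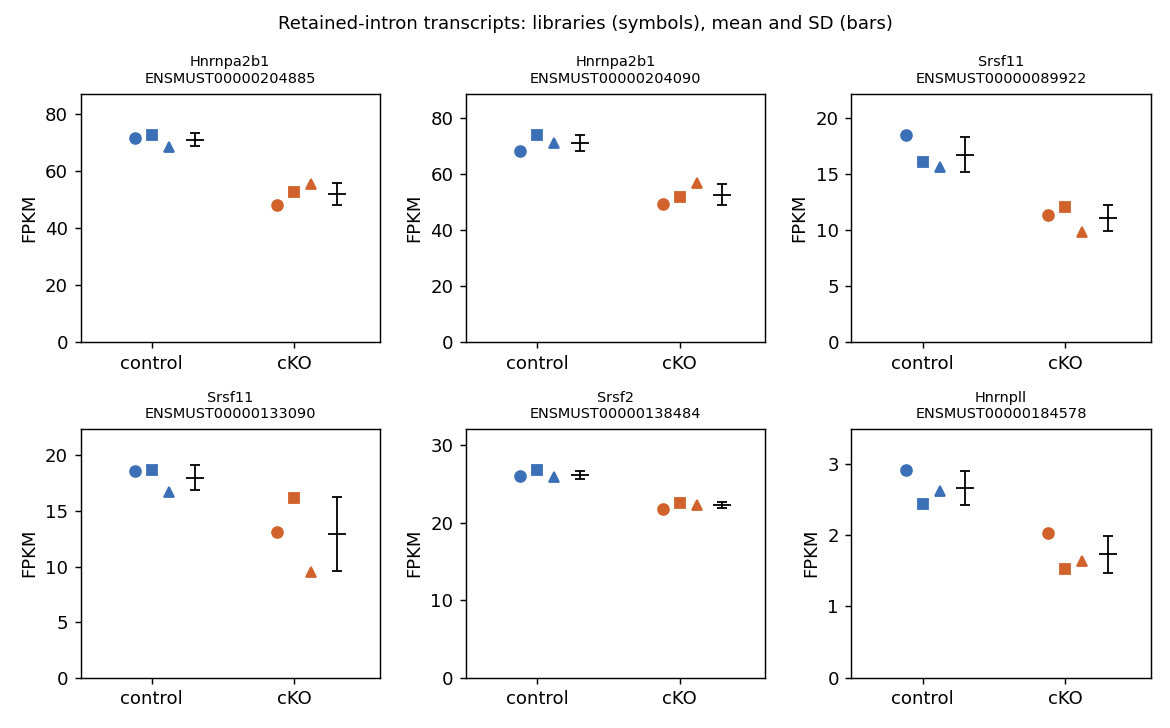
FPKM of 6 retained-intron transcripts in each library, with the mean and SD of each group (n = 3); blue is control and orange cKO, and each panel starts at 0. Both Hnrnpa2b1 transcripts lie between 68.3 and 74.0 in control and between 47.9 and 56.7 in cKO. All 6 belong to the 12 of 48 retained-intron transcripts that were separate and lower in cKO, so the separation in every panel follows from their choice. Of all retained-intron transcripts tested, 11.4% were separate and lower.

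The authors' deposited table gave 12 of the 261 transcripts a q-value under 0.05, against 3.81% of all its transcripts, 2.2% higher and 1.61% lower in cKO. The 5 higher ones in the authors' deposited table were all protein-coding (Hnrnpa3, Hnrnpd, Hnrnpk and a pair of Hnrnpab), where 4.09% of protein-coding transcripts were so. Of the 7 lower ones in the authors' deposited table, 6 were retained-intron transcripts, of 74, where 0.769% of retained-intron transcripts were lower and 0.418% higher. These shares in the authors' deposited table count all transcripts, however low. Of its 19376 retained-intron transcripts 4387 had a mean of at least 0.5 FPKM, against 48 of the 74 here, so the sets differ in level. The q-values in the authors' deposited table were 0.000511 and 0.0032 for the Hnrnpa2b1 pair, 0.000238 for Srsf11 ENSMUST00000089922, 0.0236 for Srsf2, 0.0482 for Hnrnpll ENSMUST00000184578 and 0.0031 for Hnrnpk ENSMUST00000176359. The seventh in the authors' deposited table was Hnrnpu ENSMUST00000159117, with a q-value of 0.000843. None of those that limma tested passed with adjustment over all transcripts.

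The transcripts behind those q-values differed in how many libraries carried them. Hnrnpa3 ENSMUST00000111962 was listed at 0 in all control libraries and in cKO 2 and 3, and at 17.6 FPKM in cKO 1, so 1 library set its value. Hnrnpk ENSMUST00000177060 was at 0.0199, 0 and 0 FPKM in controls 1 to 3 and 0.446, 0.0639 and 0.731 FPKM in cKO 1 to 3, and Hnrnpk ENSMUST00000176359 at 0.195, 0.7205 and 0.392 FPKM in controls 1 to 3 and 0.0307, 0.0181 and 0.02802 FPKM in cKO 1 to 3. Both Hnrnpk transcripts had means under 0.5 FPKM and were not tested by limma. Hnrnpll ENSMUST00000184578 was at 2.91, 2.44 and 2.62 FPKM in controls 1 to 3 and 2.03, 1.52 and 1.64 FPKM in cKO 1 to 3, and was lower in each cKO library. The short Hnrnpab transcript ENSMUST00000101249 was at 8.79, 5.85 and 8.997 FPKM in controls 1 to 3 and 12.6, 17.2 and 15.8 FPKM in cKO 1 to 3, and the longer ENSMUST00000074669 at 106, 104 and 98.6 FPKM in controls 1 to 3 and 119, 118 and 129 FPKM in cKO 1 to 3. Both Hnrnpab transcripts were separate and higher in cKO, with limma log2 changes of 0.92 and 0.24.

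NMD transcripts were summed in the same way. Of 15 genes with enough of them to test, 0 passed by limma, against 0.0972% of 1029 genes, and 1 was lower and 0 higher at an unadjusted p under 0.05, against 2.53% and 4.66%. The other 4 of the 19 genes lay below the filter, with a highest mean of 0.415 FPKM. The log2 changes were below 0 in 7 genes and above 0 in 8, with a median of 0.010 against 0.079 for all genes, and their median SE was 0.355. Under the 3 scalings, in the order above, the median of these genes was -0.037, -0.11 and -0.031, and that of all genes 0.041, -0.034 and 0.037, with 17 genes passing the filter in the last. The ratio of NMD to protein-coding FPKM passed for 0 of 15 genes by limma, against 0% of 991 genes, and at an unadjusted p under 0.05 was lower for 1 and higher for 0, against 2.72% and 3.33%. Summed over the 31 genes, NMD transcripts were at 189, 178 and 235 FPKM in controls 1 to 3 and 228, 177 and 241 FPKM in cKO 1 to 3. These groups overlapped, and control 3 and cKO 2 departed most from their own groups. Over all other genes the NMD sum was 5214, 4827 and 5186 FPKM in controls 1 to 3 and 6078, 6084 and 6087 FPKM in cKO 1 to 3, where every cKO library was higher.

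The gene with the unadjusted p under 0.05 in both was Hnrnpll. Its NMD transcript ENSMUST00000184297, which holds the exon shown above, was at 7.78, 4.76 and 8.82 FPKM in controls 1 to 3 and 4.63, 1.58 and 3.45 FPKM in cKO 1 to 3. All cKO libraries were below all controls, with control 2 close to cKO 1, and the fit gave a log2 change of -1.09 (SE 0.417, adjusted p = 0.66). Its coding sum was 16.4, 21.4 and 18.9 FPKM in controls 1 to 3 and 20.96, 26.6 and 24.9 FPKM in cKO 1 to 3, with control 2 above cKO 1. The gene sum was 29.9, 31.1 and 32.5 FPKM in controls 1 to 3 and 29.9, 31.8 and 31.8 FPKM in cKO 1 to 3, so the total hardly differed while both the NMD and retained-intron sums were lower in cKO. The share of the gene in coding transcripts was 54.7, 69.03 and 58.2% for controls 1 to 3 and 70.04, 83.5 and 78.3% for cKO 1 to 3, separate and higher in cKO. The NMD share was 26.00, 15.3 and 27.1% for controls 1 to 3 and 15.5, 4.96 and 10.9% for cKO 1 to 3, and there control 2 lay below cKO 1. Hnrnpll was the 1 gene of the 15 with NMD sums separate and lower in cKO, against 4.86% of all genes tested for this class, and 0 were separate and higher, against 8.94%.

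Both kinds of unproductive transcript can be set side by side for the introns drawn in the map of introns with NMD exons. In Srsf3 the transcript that keeps all of intron 3 (ENSMUST00000147265, which includes the NMD exon) was at 14.5, 16.6 and 19.9 FPKM in controls 1 to 3 and 13.9, 15.9 and 16.3 FPKM in cKO 1 to 3. The NMD transcript of Srsf3 was at 7.08, 12.9 and 16.4 FPKM in controls 1 to 3 and 4.85, 15.1 and 18.5 FPKM in cKO 1 to 3. Both overlapped between groups, and the NMD values ran wide in each. In Srsf6 the transcript that keeps all of intron 2 is the gene's only retained-intron transcript, so its values are those given above, and the NMD transcript was at 1.06, 2.66 and 0.746 FPKM in controls 1 to 3 and 1.58, 3.21 and 2.11 FPKM in cKO 1 to 3. In Srsf7 a transcript that keeps all of intron 3 (ENSMUST00000234889) was at 8.19, 9.34 and 5.69 FPKM in controls 1 to 3 and 7.75, 8.75 and 5.25 FPKM in cKO 1 to 3, and the NMD transcript at 14.8, 13.3 and 5.97 FPKM in controls 1 to 3 and 12.2, 11.5 and 10.1 FPKM in cKO 1 to 3. None of the single transcripts just given separated the groups. In Hnrnpl the NMD transcript was at 12.2, 5.88 and 8.07 FPKM in controls 1 to 3 and 11.7, 3.78 and 13.1 FPKM in cKO 1 to 3, with cKO 2 lowest and cKO 3 highest of the 6. In Srsf11 the NMD class was near the filter, at 0.543, 0.337 and 1.09 FPKM in controls 1 to 3 and 0.404, 0.473 and 0.465 FPKM in cKO 1 to 3, so its retained-intron transcripts stood far above it in every library.

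Genes that act on or with the SR and hnRNP proteins were taken from lists of known factors and tested as gene sums, against the 12.2% of all genes that passed. The values of all these lists, here and below, come from the fit as reported. The alternatives were not read for these genes, so how far their calls, medians and counts depend on the processing was not tested. Of 9 SR kinases and related regulators tested, 1 passed, lower in cKO. It was Clk4, a kinase that phosphorylates SR proteins and frees them from speckles, at 28.9, 27.4 and 27.4 FPKM in controls 1 to 3 and 21.4, 21.2 and 23.3 FPKM in cKO 1 to 3. The groups were separate (log2 change of -0.34 with SE 0.065, adjusted p = 0.0157). Srpk1, the cytoplasmic SR kinase that lets SR proteins enter the nucleus, was at 19.5, 19.4 and 21.9 FPKM in controls 1 to 3 and 22.9, 25.7 and 25.00 FPKM in cKO 1 to 3. Its cKO libraries were all higher, and it did not pass (log2 change of 0.27 with SE 0.076, adjusted p = 0.0549). Clk1 was at 33.4, 41.8 and 33.1 FPKM in controls 1 to 3 and 36.1, 36.8 and 31.7 FPKM in cKO 1 to 3, with overlapping groups.

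Of 20 Tra2 proteins, SR-related proteins and import factors, 1 was lower and 0 higher. It was Luc7l2, a U1-associated factor, at 63.7, 64.7 and 61.1 FPKM in controls 1 to 3 and 53.1, 56.2 and 52.9 FPKM in cKO 1 to 3 (log2 change of -0.22 with SE 0.058, adjusted p = 0.043). Of 34 other splicing regulators, 1 was higher and 2 lower. Ptbp1, the polypyrimidine-tract protein that represses exons and is classed with the hnRNPs as hnRNP I, rose from 121 ± 6.28 to 164 ± 14.9 FPKM (SD, n = 3), a log2 change of 0.44 with SE 0.081, adjusted p = 0.0136. Its paralog Ptbp2, whose splicing Ptbp1 is known to repress, fell from 13.4 ± 0.566 to 10.5 ± 0.479 FPKM, a log2 change of -0.33 with SE 0.072, adjusted p = 0.0239. Mbnl1, a muscleblind protein that drives splicing changes in differentiation, was at 84.2, 91.1 and 86.2 FPKM in controls 1 to 3 and 61.2, 68.7 and 65.98 FPKM in cKO 1 to 3. It fell (log2 change of -0.41 with SE 0.066, adjusted p = 0.00779), and its groups were separate.

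Of 45 core spliceosome genes, 1 was higher, Prpf4 of the tri-snRNP (log2 change of 0.29 with SE 0.077, adjusted p = 0.0459), and 0 were lower. Their median log2 change was 0.15, against 0.051 for all genes tested. At an unadjusted p under 0.05, 19 of the 45 were higher and 0 lower, where 19.5% of all genes were higher and 10.1% lower. Of 18 NMD factors 0 passed by limma, with Smg8, a regulator of the SMG1 kinase, the lowest in p (log2 change of 0.26 with SE 0.088, adjusted p = 0.0961), and at an unadjusted p under 0.05 4 were higher and 0 lower. By that count, higher and lower, the SR kinase list had 1 and 3, the Tra2 and SR-related list 2 and 3, the other splicing regulators 7 and 2, the retention and decay list 3 and 2 and the cell cycle list 5 and 0. Of 15 genes of nuclear RNA retention and decay, 1 was higher and 1 lower. Malat1, a nuclear speckle RNA that binds SR proteins, was at 79.7, 52.9 and 51.2 FPKM in controls 1 to 3 and 147, 198 and 108 FPKM in cKO 1 to 3. Every cKO library was higher (log2 change of 1.28 with SE 0.232, adjusted p = 0.0126). Zfc3h1, which holds polyadenylated RNA in the nucleus for the exosome, was at 20.5, 17.3 and 18.8 FPKM in controls 1 to 3 and 14.8, 14.6 and 14.1 FPKM in cKO 1 to 3. It was lower in each cKO library (log2 change of -0.37 with SE 0.077, adjusted p = 0.0214). Of 11 cell cycle genes 1 was higher, the mitotic cyclin Ccnb1 (log2 change of 0.24 with SE 0.060, adjusted p = 0.0366), and 0 were lower, while Mki67 overlapped between groups at 38.7, 37.7 and 39.4 FPKM in controls 1 to 3 and 43.4, 39.4 and 31.4 FPKM in cKO 1 to 3.

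Some values are shared with neighbouring genes. Exons of 11 of the 31 genes overlap an exon of a gene on the opposite strand, such as Srsf2 with Mettl23 and Mfsd11, Hnrnpu with Cox20 and Hnrnpab with Phykpl. Exons of 3 genes (Hnrnpa3, Hnrnpm and Hnrnpul2) overlap a gene on the same strand. The labels' protocols name dUTP, used to mark strand, but the strand setting used in counting is not given in the sources used here. Reads of overlapping transcripts of 1 gene are divided by an estimate, so that the classes of a gene are not independent of each other.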

How the data were processed

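RNA-seq of 6 libraries was used. Per the labels' protocols, RNA was taken with Trizol, fragmented with magnesium and reverse transcribed with dUTP. The deposited table gives FPKM per transcript and library, made by the authors on genome build mm10, per the submitters' processing notes. It also holds the authors' ratio of means (fold), its log2 value, and a p-value and q-value, per the file headers. No source used here gives the aligner, the estimator or the authors' test. Groups and replicate numbers came from the sample titles.

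FPKM were summed per gene symbol and per class (Python 3.11.15, pandas 2.3.3, NumPy 2.4.6). Features with a mean of at least 0.5 FPKM were tested on log2(FPKM + 0.5), or on the log2 ratio of 2 classes, a scale that understates changes of low values. A 2-sided limma fit (version 3.58.1, R 4.3.3) over all 6 libraries, with the trend option and no covariates, gave the tests. P-values were adjusted by Benjamini-Hochberg over all features of the fit, at 0.05. Adjusted p-values come from this test unless another setting is named beside them. The fits were tested on simulated data. Plots were drawn with Matplotlib 3.10.9.

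The members, the lists of related factors and the tests were chosen with earlier results of these data known. Named were genes past 0.05 in any fit, the 6 highest members, those under the filter, up to 12 transcripts past 0.05 and up to 4 genes of each list by smallest p. Genes and transcripts described beyond these were chosen after their values were seen. Alternatives were pseudocounts, filters, scalings, the trend, a replicate block, class shares and leaving out each library. Quantile normalization was done within the features of each fit, and within each class for ratios. By design this brings the median change of all features near 0. Replicates with the same number did not deviate together (correlations -0.016, -0.056 and -0.046), so no pairing by number was seen. With 3 libraries a group these correlations cannot exclude a pairing.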

Additional observations from a re-analysis of the deposited data

How the results depend on the processing

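The fits as reported called 1 gene sum (Srsf11), 1 protein-coding sum (Hnrnpl) and 0 retained-intron sums, NMD sums, class ratios and transcripts. Called gene sums became 0 without a filter, 2 with a mean of at least 2 FPKM (Hnrnpab added) and 3 with quantile normalization (Hnrnpa2b1 and Srsf10 added). Without the trend the 1 called gene was Srsf12. Called protein-coding sums became 2 with a mean of at least 2 FPKM (Hnrnpk added) and 0 under each of the 3 scalings. Called transcripts became 2 with quantile normalization and 1 after rescaling to a fixed total. Leaving out 1 library gave 0 to 1 gene sums and 0 to 1 protein-coding sums, the latter Srsf4 without control 1 and Hnrnph1 without cKO 3. With the replicate block 0 gene sums and 0 protein-coding sums were called, and whether the numbers pair the libraries is not known. The cause of these differences was not tested. Over all genes, 62.5% of called gene sums were higher in cKO as reported, 48.4% with median-of-ratios scaling, 47.5% with quantile normalization, 50.7% after rescaling to a fixed total, 50.4% without the trend, 51.7% without a filter and 41.9% (without control 2) to 62.5% (without control 3) with 1 library left out.

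Gene-sum log2 changes near 0 turned sign for 10 genes, none of them called. With median-of-ratios scaling they were -0.0486 for Hnrnpll, -0.0153 for Hnrnpul1, -0.0381 for Srsf3 and -0.0275 for Srsf6. With quantile normalization they were -0.0292 for Hnrnpa3, -0.0854 for Hnrnpll, -0.0447 for Hnrnpul1, -0.0947 for Srsf3, -0.0106 for Srsf5 and -0.0612 for Srsf6. After rescaling to a fixed total they were -0.034 for Hnrnpll, -0.000217 for Hnrnpul1, -0.023 for Srsf3 and -0.0124 for Srsf6. With 1 library left out they ran from -0.0778 to 0.248 for Hnrnpa3, -0.0274 to 0.0315 for Hnrnpll, -0.0855 to 0.0761 for Hnrnpm, -0.0779 to 0.0045 for Hnrnpa0, -0.0962 to 0.0261 for Srsf9, -0.018 to 0.074 for Hnrnpul1, -0.0228 to 0.0676 for Srsf3, -0.0484 to 0.0011 for Hnrnpul2 and -0.00991 to 0.0457 for Srsf6.

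FPKM carry no counts, so how depth limits low classes could not be computed, and with 3 libraries a group the median SE of 0.355 for NMD sums leaves all but large changes below the threshold.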
